A study of Mus musculus with 8 samples.

Results

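Sat1 and Odc1 encode enzymes that act on the level of polyamines in a cell, one in breakdown and the other in synthesis. The array annotation assigned 2 of the 12488 probe sets to them by a single symbol, 1 to each gene, out of 8252 genes named this way. Both probe sets are of the plain type, with no mark in their names for a shared or family target. The pair was chosen by measured values of these same arrays: Sat1 stood among the largest rises with TSA in an earlier look at the data. All values of Sat1 and Odc1 below are therefore given as a description, without a test.

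The cells were mouse neurospheres, floating cultures of neural stem and progenitor cells, grown from single forebrains of embryos at day 14.5. Every culture, the untreated one included, carried a bcl2 transgene, for which the labels name neither promoter nor line. The 4 groups were untreated cells, cells given AzaC (5-Aza-2’-deoxycytidine, a DNA methyltransferase inhibitor) at 500 nM, cells given TSA (Trichostatin A, a histone deacetylase inhibitor) at 150 nM, and cells given both at these doses (AzaC/TSA), each for 2 days. Each group had 2 arrays, 1 from experiment 1 and 1 from experiment 2, so n = 2 for every group mean.

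Polyamines (putrescine, spermidine and spermine) are small positively charged molecules that bind nucleic acids and that dividing cells need. Ornithine decarboxylase, the product of Odc1, makes putrescine from ornithine and is the first committed step. It is a short-lived protein that antizymes direct to the proteasome. Spermidine/spermine N1-acetyltransferase, the product of Sat1, acetylates spermidine and spermine, which are then oxidised or exported. Polyamines themselves raise the output of Sat1 and antizyme and lower that of Odc1, largely by steps after transcription that arrays of RNA do not measure.

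A stretch of 250 bases at the start of each gene is shown because TSA and AzaC act on chromatin and DNA methylation. The stretches also differ in composition between the genes. They come from the RefSeq annotation of build GRCm38.p6 and are written 5′ to 3′ on the gene's own strand. The Sat1 stretch ends at the base before the gene's start. The Odc1 stretch runs past the start listed for the gene (17544808), so its last bases lie within the gene. Positions are counted back from the end of each stretch. The arrays measured RNA and not these regions. Sat1 lies on the minus strand at chrX:155216450-155216699 and Odc1 on the plus strand at chr12:17544623-17544872. Capitals mark matches on either strand to GGGCGG (the GC box bound by Sp1-type factors) or TGACG (the core of the cAMP response element).
Sat1: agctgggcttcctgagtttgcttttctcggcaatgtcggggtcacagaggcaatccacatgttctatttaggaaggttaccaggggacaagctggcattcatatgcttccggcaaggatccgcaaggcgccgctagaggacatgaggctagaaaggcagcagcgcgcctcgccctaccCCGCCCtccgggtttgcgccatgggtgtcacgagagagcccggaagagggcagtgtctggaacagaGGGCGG
Odc1: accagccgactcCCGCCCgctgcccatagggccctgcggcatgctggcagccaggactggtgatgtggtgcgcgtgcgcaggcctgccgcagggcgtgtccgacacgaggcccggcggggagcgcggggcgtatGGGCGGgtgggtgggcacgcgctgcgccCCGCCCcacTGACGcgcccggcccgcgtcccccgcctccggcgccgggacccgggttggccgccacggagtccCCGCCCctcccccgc
The Odc1 stretch had a G+C content of 80% and 35 CpG dinucleotides, the sites at which DNA is methylated. The Sat1 stretch had 59.6% and 15 CpG. Over 32851 such stretches the medians were 52.4% and 6 CpG. The GC box letters occurred 4 times in the Odc1 stretch, starting at -238, -116, -88 and -15, the last of them past the listed gene start. They occurred 2 times in the Sat1 stretch (at -72 and -6), and in 32.7% of all the stretches at least once. TGACG occurred at -79 in the Odc1 stretch, not in that of Sat1, and in 17.8% of all. No overlap joined a GC box to TGACG. The letters of 4 other motifs were found in neither stretch: CACGTG (the E-box, in 6.02% of all), TATAAA (the TATA box, 12.4%), CCAAT (33.8%) and TGACNNNGC (the antioxidant response core, which overlaps TGACG in its first bases, 10.2%).

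Signals were fluorescence intensities in arbitrary units, and all arrays as deposited share a trimmed mean of 200.1. The lowest array median was 59.2 and the highest 72.7. A signal of 50, used here as the mark of a measurable probe set, was reached by 53.1% of them on the poorest array and 58.3% on the best. Of the neural stem and progenitor markers, Fabp7, Sox2 (2391 to 4830) and Nes (1049 to 3003) were above 1000 on all 8 arrays, while Vim and Hes5 were too dim to be tested and Msi1 reached 78 at most. Fabp7, which binds fatty acids in radial glia, fell with TSA, from 9310 and 10920.1 untreated to 2496.9 and 1062.9 (limma adjusted p = 0.0133). It was the 1 gene of 7 tested that passed, where 2.33% of all 6011 tested genes rose and 3.34% fell. For TSA added to AzaC 0 of 7 passed, where 1.28% of all rose and 1.93% fell. Nes, Sox2 and Pax6 had negative changes with TSA alone, and Msi1, Hes1 and Prom1 positive ones, none of which passed. The summed signal of the 7 was 15569 to 17156 in untreated cells, 14500 to 16625 with AzaC, 5865 to 7644 with TSA and 9292 to 12953 with AzaC/TSA. Fabp7 was the largest part of this sum on every array without TSA. Among 4 tested astrocyte markers Clu rose in both comparisons that added TSA, from 71.8 to 97.9 on the arrays without it to 1021.8 to 2048.8 on those with it. S100b fell with TSA alone, from 178.4 and 200.4 to 59.7 and 62.9 (adjusted p = 0.0494). Gfap and Aldoc passed in neither comparison, with changes of 0.70 and -0.96 for TSA alone and -0.17 and -1.49 for TSA added to AzaC. The 4 thus gave 1 risen and 1 fallen with TSA alone, where 2.33% and 3.34% of all genes did. With TSA added to AzaC 1 rose and 0 fell, against 1.28% and 1.93%. The summed signal of these 4 was 674.4 to 1540 untreated, 763.1 to 3817 with AzaC, 1988 to 2663 with TSA and 1399 to 2172 with AzaC/TSA. Clu was the largest part of it on every array with TSA, and Aldoc on every array without.

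Markers of dividing cells had a median log2 change of -3.92 with TSA. Of 14 tested, 12 fell in each comparison that added TSA, where 3.34% (TSA against untreated) and 1.93% (AzaC/TSA against AzaC) of all 6011 tested genes did. By group their summed signal was 10386 to 15313 in untreated cells, 11536 to 15755 with AzaC, 1228 to 1562 with TSA and 1149 to 2086 with AzaC/TSA. Of 7 tested neuron markers, 2 (Snap25 and Syp) rose with TSA alone, against 2.33% of all genes. With TSA added to AzaC 1 (Snap25) rose, against 1.28%. Snap25 signals were 4.3 to 31.8 on the arrays without TSA and 252 to 615.4 on those with it. Tubb3 and Map2 had negative changes in both comparisons, and Dcx, Stmn2 and Gap43 positive ones, none of which passed. The summed signals of the 7 overlapped between all groups (1725 to 2859 over the 8 arrays). Tubb3 (834.1 to 2375.9) was the largest part of that sum on every array. Of 6 tested blood, microglia and macrophage markers Cd68 alone rose in each of these comparisons, from 30 to 53 on the arrays without TSA to 166.9 to 474.1 on those with it, and Ptprc, Aif1 and Itgam stayed at or under 19.2 on every array. The 5′ to 3′ ratio of actin control signals, a sign of RNA integrity, was 0.290 to 0.390 on the arrays with TSA and 0.332 to 0.471 on those without. The part of these markers and ratios in the values of Sat1 and Odc1 was not tested.

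Sat1, the acetylating enzyme of polyamine breakdown, had a signal of 387 and 139.4 in untreated cells of experiments 1 and 2. With AzaC its signals were 456.2 and 246.3. TSA gave 2708.7 and 2829.4, and AzaC/TSA gave 2223.3 and 2227.7. All 4 arrays with TSA therefore lay far above all 4 without it, and the gap between the highest array without TSA and the lowest with it spanned 456.2 to 2223.3. Among the 6011 tested genes, 11.9% had all 4 arrays with TSA above all 4 without and 13.4% had them below.

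Odc1, the first enzyme of polyamine synthesis, ran over a narrower range. Its signals were 264.5 and 346.7 in untreated cells and 284.2 and 405.3 with AzaC. With TSA alone they were 687.7 and 719.3, the 2 highest of the 8. With AzaC/TSA they were 471.8 in experiment 1 and 236.8 in experiment 2, the latter the lowest of all 8 arrays. The arrays with and without TSA thus overlapped for Odc1.

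**Figure D1:**
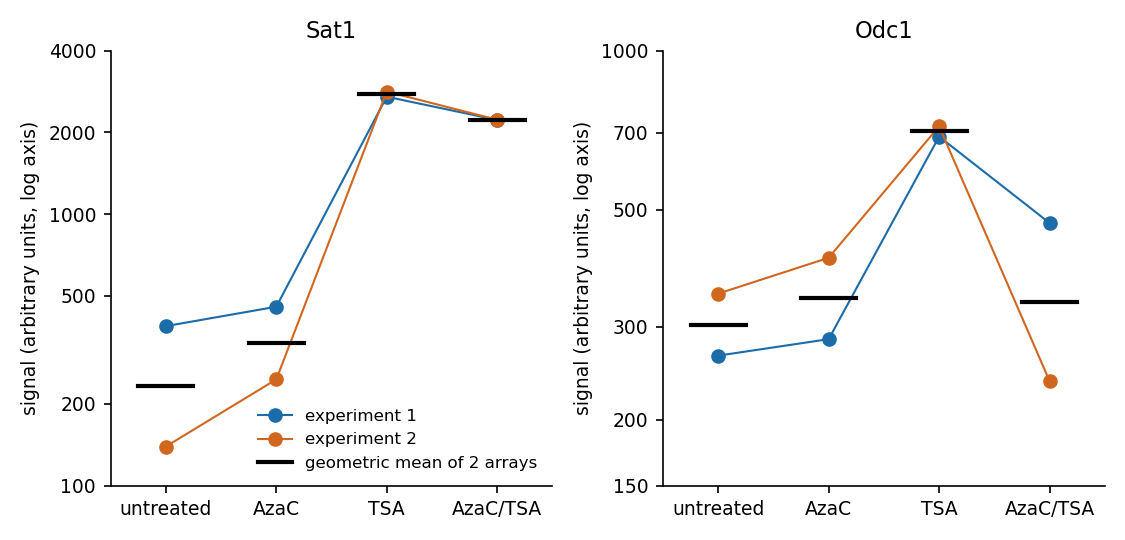
Signal of Sat1 (left) and Odc1 (right) on each of the 8 arrays, on a log axis in arbitrary units, by group. Points are single arrays joined within an experiment and bars are geometric means of the 2 arrays; the geometric means of Sat1 are 2768 with TSA and 2226 with AzaC/TSA, while Odc1 is high with TSA alone and splits to 471.8 and 236.8 with AzaC/TSA.

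For Sat1 the order of the geometric means was untreated (232), AzaC (335), AzaC/TSA (2226) and TSA (2768). The untreated and AzaC signals overlapped. The TSA and AzaC/TSA signals did not overlap and differed the same way in both experiments. Their log2 difference of -0.31 was smaller than the SE of the fit to all 4 groups (0.46), to which the wider spread of the other 2 groups contributes, and larger than the SE when those 2 groups alone were fitted (0.19). For Odc1 the order was untreated (303), AzaC/TSA (334), AzaC (339) and TSA (703). The first 3 of these overlapped, and TSA alone stood apart from them.

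Between experiments, Sat1 differed most where TSA was absent. In untreated cells experiment 1 was 2.78-fold above experiment 2, a log2 difference of 1.47 against a median of 0.38 over all tested genes, and 94.3% of genes differed by less. With AzaC the difference was 1.85-fold, larger than in 79.2% of genes. With TSA it was 1.04-fold and with AzaC/TSA 1.00-fold, where only 9.58% and 1.25% of genes differed by less. The experiments therefore lay apart at the low Sat1 signals and close together at the high ones.

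For Odc1 the experiments were likewise close with TSA, but they lay furthest apart with AzaC/TSA. They differed by 1.31-fold untreated, 1.43-fold with AzaC and 1.05-fold with TSA, with experiment 2 the higher in each. With AzaC/TSA experiment 1 was 1.99-fold above experiment 2, and 83.5% of genes differed by less in that group.

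The comparison of TSA with untreated cells asks which RNAs differ after histone deacetylase inhibition. Sat1 was 11.9-fold higher with TSA (log2 change 3.58, SE 0.46, n = 2 arrays per group). Within experiment 1 it was 7.0-fold higher and within experiment 2 it was 20.3-fold higher. Of 6011 genes, 10 had a larger log2 change. The 2 untreated arrays set the size of this value: it was 4.31 without untreated 1 and 2.84 without untreated 2.

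Odc1 was 2.32-fold higher with TSA than in untreated cells (log2 change 1.22, SE 0.37), 2.60-fold in experiment 1 and 2.07-fold in experiment 2. Its place among all genes was far less extreme, with 93.2% of genes lower. Both the enzyme that opens polyamine synthesis and the one that opens breakdown thus had more RNA with TSA alone, Sat1 by the larger factor in each experiment. On RNA from whole cultures, a change in RNA per cell and a change in the share of cells of a type cannot be told apart.

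**Figure D2:**
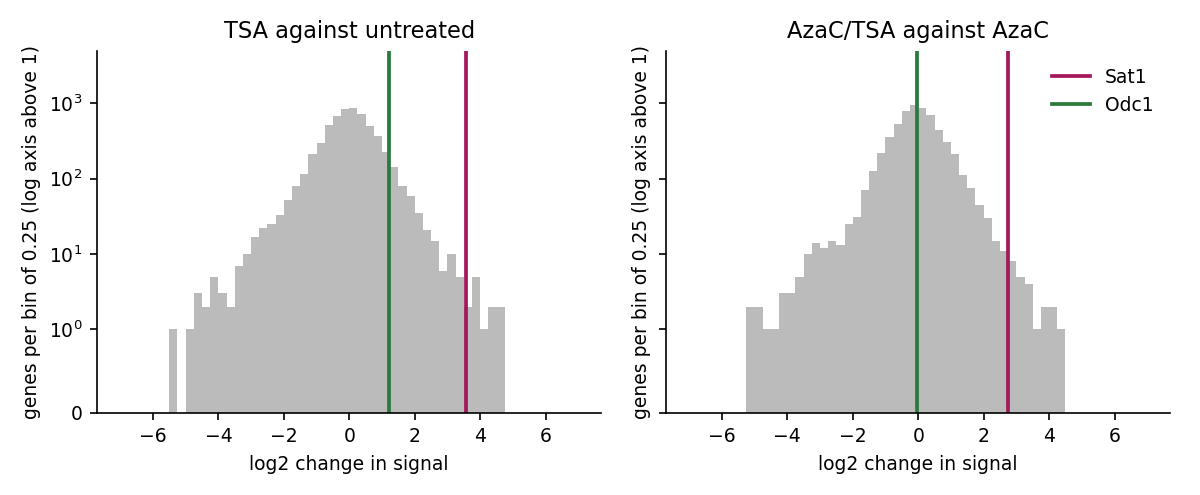
Distribution of log2 changes over 6011 genes for TSA against untreated (left) and AzaC/TSA against AzaC (right), as genes per bin of 0.25 on an axis that is logarithmic above 1. Vertical lines mark Sat1 (3.58 and 2.73), in the upper tail of both panels, and Odc1 (1.22 and -0.02), which is at the centre of the right panel.

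TSA was also added on top of AzaC. The 4 arrays of this comparison are all different from those above but come from the same 2 experiments. Sat1 was 6.64-fold higher with AzaC/TSA than with AzaC (log2 change 2.73, SE 0.46), 4.87-fold in experiment 1 and 9.04-fold in experiment 2. Among all genes 24 had a larger change. In signal units the gain was 1767 and 1981 in the 2 experiments, against 2322 and 2690 for TSA alone.

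Odc1 did not follow Sat1 here. Its mean log2 change was -0.02 (SE 0.37), made of a 1.66-fold higher signal in experiment 1 and a 1.71-fold lower one in experiment 2. The value was 0.48 without AzaC/TSA 2 and -0.52 without AzaC/TSA 1, so its sign rests on which of these arrays is kept.

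Against untreated cells, AzaC/TSA gave 9.58-fold more Sat1 signal (log2 change 3.26, SE 0.46), 5.75-fold in experiment 1 and 16.0-fold in experiment 2. This comparison shares its untreated arrays with that of TSA alone. The value was 4.0 without untreated 1 and 2.52 without untreated 2. For Odc1 the log2 change was 0.14 (SE 0.37), with a 1.78-fold higher signal in experiment 1 and a 1.46-fold lower one in experiment 2. It was 0.64 without AzaC/TSA 2 and -0.35 without AzaC/TSA 1.

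With AzaC alone the signals of both genes overlapped those of untreated cells. Sat1 was 1.44-fold higher (log2 change 0.53, SE 0.46), 1.18-fold in experiment 1 and 1.77-fold in experiment 2. That value ran from 1.27 without untreated 1 to -0.21 without untreated 2. Odc1 was 1.12-fold higher (0.16, SE 0.37), 1.07-fold and 1.17-fold in the 2 experiments, and -0.09 without AzaC 2.

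Adding AzaC to TSA separated the genes by size. Sat1 was 1.24-fold lower with AzaC/TSA than with TSA (log2 change -0.31, SE 0.46), 1.22-fold and 1.27-fold in the 2 experiments. Odc1 was 2.10-fold lower (-1.07, SE 0.37), 1.46-fold in experiment 1 and 3.04-fold in experiment 2, and 1.38% of genes had a change further down. Without AzaC/TSA 1 it was -1.57 and without AzaC/TSA 2 it was -0.58. The interaction, which is the TSA change in the presence of AzaC minus that in its absence, was -1.24 for Odc1 (SE 0.52) and -0.84 for Sat1 (SE 0.65). For Odc1 it ran from -1.74 to -0.74 when single AzaC/TSA arrays were left out, and for Sat1 from -1.58 to -0.11 when single untreated arrays were.

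**Figure D3:**
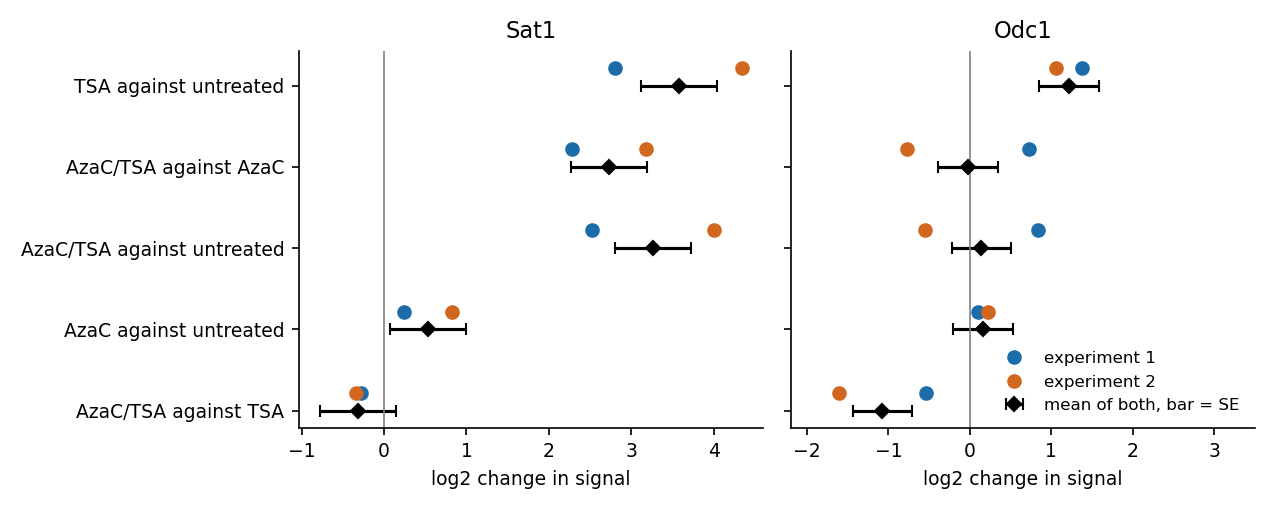
Log2 change in signal of Sat1 (left) and Odc1 (right) for 5 comparisons of groups. Coloured points are the changes within experiment 1 and 2, black diamonds the mean of both with its SE; Sat1 is above 2 in each experiment wherever TSA was added to cells, and Odc1 changes sign between experiments for AzaC/TSA against AzaC and against untreated.

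The change of Sat1 exceeded that of Odc1 in all 4 pairs of arrays of the same experiment in which TSA was added. The excess on the log2 scale was 1.43 in experiment 1 and 3.29 in experiment 2 without AzaC, and 1.55 and 3.95 with AzaC. The 2 genes' log2 signals correlated across the 8 arrays with r = 0.49, a description over arrays that share treatments and experiments.

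The rest of the polyamine network was taken from lists of 74 other genes in 8 classes. Of these 52 had a probe set of their own in the annotation and 36 were bright enough to be tested. The enzymes closest to Sat1 and Odc1 were thinly covered: Sat2, Smox, Paox and Amd1 had no probe set of their own in the annotation used here, and Sms and Oaz1 shared theirs with other symbols. Arginase genes Arg1 and Arg2, which supply ornithine, were dim, with at most 45.4 on any array, as was Eif5a (at most 49.2), the translation factor that carries the spermidine-derived hypusine.

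With TSA against untreated, 2 of 36 genes rose and 2 fell (limma, adjusted p under 0.05), while 2.33% and 3.34% of the 6011 tested genes did. The median log2 change of the 36 was 0.06, against 0.02 over all genes. Taking the experiment as a replicate block gave 4 risen and 6 fallen genes, against a background of 6.04% and 7.24%. With TSA added to AzaC, 1 rose and 2 fell (background 1.28% and 1.93%), or 3 and 5 when blocked (4.89% and 5.41%). With AzaC/TSA against untreated, 2 rose and 3 fell (1.36% and 2.06%), or 4 and 7 when blocked (4.72% and 5.62%). The medians of the 36 in the latter 2 comparisons were -0.04 and 0.18, against -0.04 and -0.01 over all genes. These counts are small and rest on single arrays. For TSA against untreated 0 genes rose without untreated 2, TSA 1 or TSA 2, and 0 fell without untreated 2 or TSA 2. For TSA added to AzaC 0 rose without AzaC 2 or AzaC/TSA 1, and 0 fell without AzaC 2, AzaC/TSA 1 or AzaC/TSA 2. For AzaC/TSA against untreated 0 rose without untreated 2 or AzaC/TSA 1, and 0 fell without untreated 2, AzaC/TSA 1 or AzaC/TSA 2. Every call behind the counts without the block was lost in at least 1 of these cases. Of the 36 genes 7 had all 4 arrays with TSA above all 4 without, and 6 had them below, where 11.9% and 13.4% of all genes did.

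**Figure D4:**
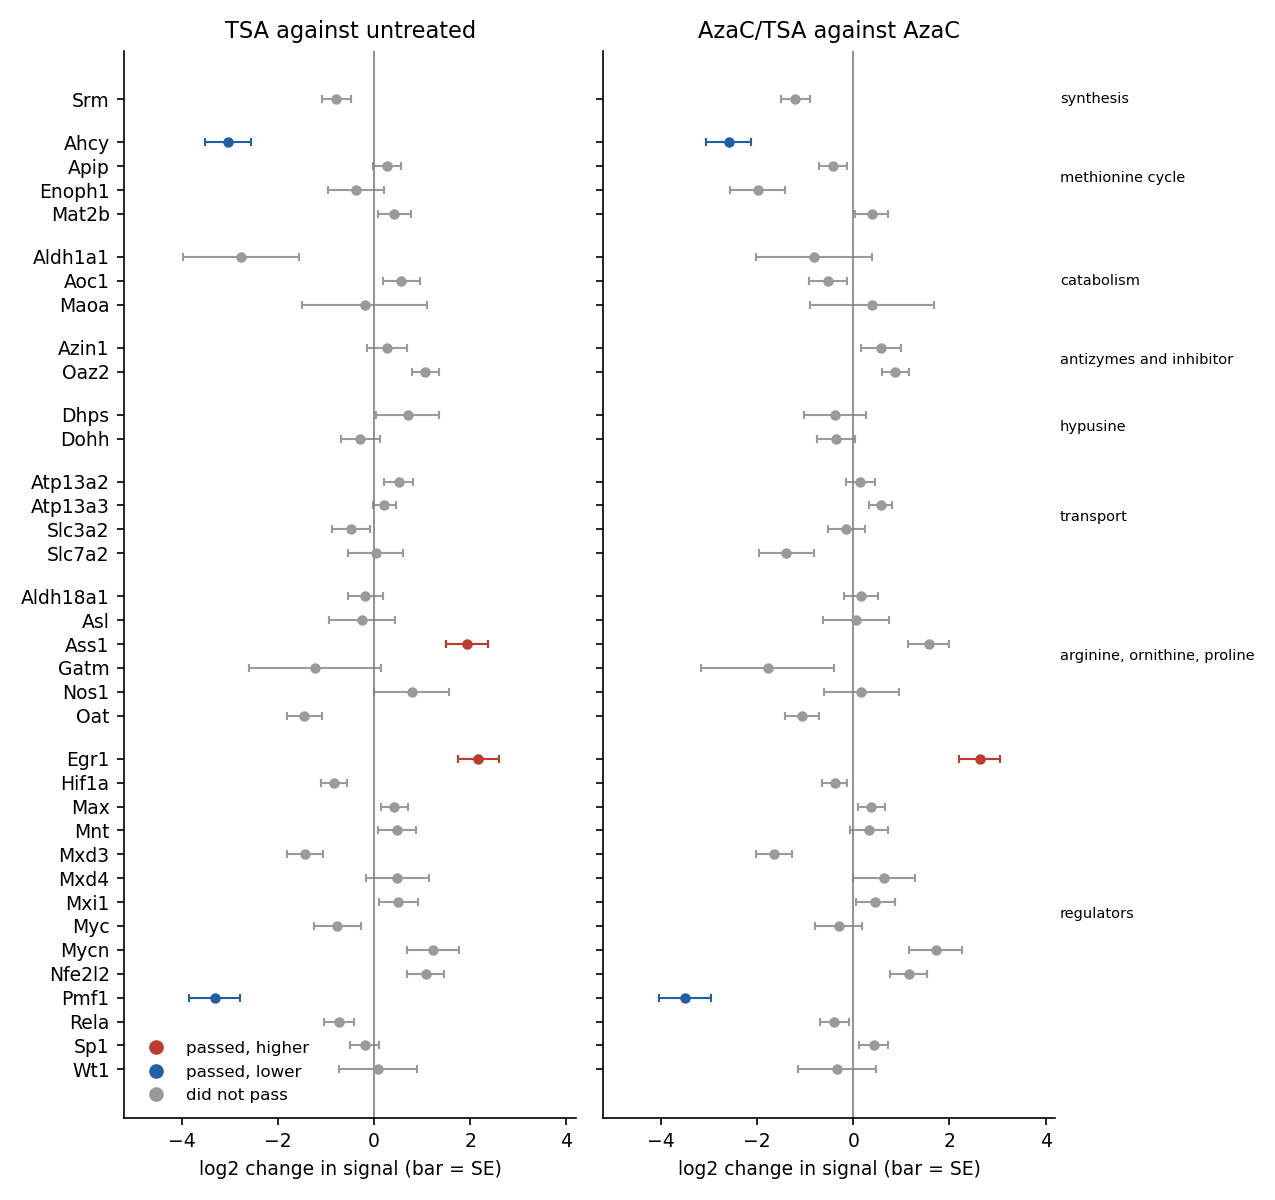
Log2 change with its SE for the 36 tested genes of the polyamine network, grouped by class, for TSA against untreated (left) and AzaC/TSA against AzaC (right). Red and blue mark genes that passed an adjusted p of 0.05 upward and downward; Egr1, Ahcy and Pmf1 passed in both panels and Ass1 in the left one.

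In synthesis, Srm was the only tested gene of 8. It encodes spermidine synthase, which follows ornithine decarboxylase. Its signals were 369.1 and 476.8 untreated, 549.6 and 362.6 with AzaC, 237.5 and 247.3 with TSA, and 208.9 and 179.7 with AzaC/TSA. All 4 arrays with TSA lay below all 4 without, but the changes did not pass: -0.79 for TSA against untreated (SE 0.30, limma adjusted p = 0.184) and -1.20 for TSA added to AzaC (adjusted p = 0.0759, and 0.0293 with the block). The name of its probe set marks it as one that may also detect relatives. Srm and Odc1, neighbours in the pathway, thus lay on opposite sides of their untreated signals with TSA alone.

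Among the regulators of ornithine decarboxylase protein, Oaz2 (antizyme 2, which binds the enzyme for degradation) had signals of 216.8 and 213.3 untreated, 268.4 and 191.1 with AzaC, 487 and 413.8 with TSA, and 440.3 and 389.8 with AzaC/TSA. It lay higher on all 4 arrays with TSA. Its log2 change with TSA was 1.06 (SE 0.28, limma adjusted p = 0.0674), which passed only with the block (adjusted p = 0.0209). Azin1, the antizyme inhibitor that releases the enzyme, was at 771.2 and 1701.3 with TSA against 1140.3 and 792.6 untreated, a log2 change of 0.27 (SE 0.42) that did not pass.

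The methionine cycle supplies the aminopropyl groups of spermidine and spermine. Its gene Ahcy, which removes S-adenosylhomocysteine, fell with TSA. On its brightest probe set the signals were 700.6 and 1429.3 untreated, 854.4 and 1952.1 with AzaC, 151.2 and 97.5 with TSA, and 249.2 and 182.7 with AzaC/TSA. The fall was 8.24-fold for TSA against untreated (log2 change -3.04, SE 0.48, limma adjusted p = 0.0124), 6.05-fold for TSA added to AzaC (adjusted p = 0.027) and 4.69-fold for AzaC/TSA against untreated (adjusted p = 0.0432). Without the block, another probe set passed for TSA against untreated only (-2.53, adjusted p = 0.0262) and the remaining one in none of the 3 comparisons. With the block the former passed in all 3 (adjusted p = 0.000544, 0.00142 and 0.00162), and the latter for AzaC/TSA against AzaC (0.0133) and against untreated (0.0287). All 3 probe sets had negative changes in each comparison. The name of the brightest carries a mark for a shared or family target, and those of the others do not. Of the other 3 tested genes of this class 0 passed without the block. With it Enoph1, of the methionine salvage pathway, passed for TSA added to AzaC (-1.99, SE 0.58, adjusted p = 0.114 without the block and 0.0417 with it).

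Arginine and ornithine enzymes differed among themselves. Ass1, which makes the precursor of arginine, rose: 56.1 and 24.6 untreated, 73.1 and 83.8 with AzaC, 139.7 and 143.6 with TSA, and 230 and 233 with AzaC/TSA. The log2 change was 1.93 for TSA against untreated (SE 0.44, limma adjusted p = 0.0398) and 2.64 for AzaC/TSA against untreated (adjusted p = 0.0164). With TSA added to AzaC it was 1.56 and did not pass (adjusted p = 0.102, and 0.0469 with the block). Oat, ornithine aminotransferase, which takes ornithine away from polyamine synthesis, went from 519.6 and 764.3 untreated to 227.4 and 233.9 with TSA, a log2 change of -1.45 (SE 0.36) just outside the threshold (adjusted p = 0.0535, and 0.019 with the block).

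Several transcription factors and other regulators are known to act on Odc1 or Sat1, and 14 of the 18 listed were tested. Egr1, an immediate early factor, rose: its signals were 568.3 and 701.3 untreated, 652.2 and 367.4 with AzaC, 3161.9 and 2556.9 with TSA, and 4670.3 and 1958.7 with AzaC/TSA. The change was 4.50-fold for TSA against untreated (log2 2.17, SE 0.42, limma adjusted p = 0.0254) and 6.18-fold for TSA added to AzaC (adjusted p = 0.0155).

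Pmf1, a cofactor described at the Sat1 gene and also a subunit of the kinetochore, fell while Sat1 was higher. Its signals were 130.2 and 353.1 untreated, 177.4 and 290.7 with AzaC, 23.0 and 14.4 with TSA, and 13.4 and 18.3 with AzaC/TSA. The log2 change was -3.32 for TSA against untreated (SE 0.54, limma adjusted p = 0.0133) and -3.50 for TSA added to AzaC (adjusted p = 0.0129). Its size depends on the floor of 20 to which lower signals were raised: with a floor 2 times as high the changes were -2.42 and -2.50. For TSA against untreated it was -2.60 without untreated 2 and -4.04 without untreated 1. Nfe2l2 (Nrf2), the factor that Pmf1 is described to bind at Sat1, had signals of 624.2 and 660.2 untreated and 1776.4 and 1023.2 with TSA. It was at 2152.7 and 1043.3 with AzaC/TSA, against 734.3 and 618.3 with AzaC. Its log2 change of 1.07 with TSA did not pass (SE 0.38, adjusted p = 0.155) but did with the block (0.0336).

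Myc, the best known activator of Odc1, had signals of 174.5 and 342.9 untreated, 193.1 and 327.5 with AzaC, 104.8 and 197.3 with TSA and 157.1 and 262.6 with AzaC/TSA. Its log2 change with TSA was -0.77 (SE 0.48, adjusted p = 0.422), opposite in sign to that of Odc1. Mycn, its relative of the nervous system, was dim: 23.4 and 19.7 untreated, 70.4 and 36.4 with TSA, a change of 1.23 (SE 0.55) that did not pass (adjusted p = 0.247). The size of the Mycn change depends on the floor: with a floor 2 times as high it was 0.41. Mxd3, a repressor of the same network, fell for AzaC/TSA against untreated (-1.92, SE 0.38, limma adjusted p = 0.0303). Without the block it missed the threshold with TSA alone (-1.45, adjusted p = 0.0642, and 0.0197 with the block). The same held for TSA added to AzaC (-1.66, adjusted p = 0.0563, and 0.0151 with the block). Hif1a, the hypoxia factor, passed only with the block, for TSA against untreated (-0.83, SE 0.26, adjusted p = 0.0214, and 0.117 without it) and AzaC/TSA against untreated (-0.71, adjusted p = 0.0491, and 0.207 without it). Its other probe set missed the threshold in both fits. The names of both probe sets mark them as ones that may also detect relatives.

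In catabolism, hypusine formation and transport 0 of 3, 0 of 2 and 0 of 4 tested genes passed in the 3 comparisons above. Of all 6011 genes 1.28% to 2.33% rose and 1.93% to 3.34% fell in them. Classes this small cannot show a difference from those shares. Dhps, the first hypusine enzyme, was dim (15.7 to 76.6), with a change of 0.70 (SE 0.65) for TSA against untreated. With the block Aldh1a1, an aldehyde dehydrogenase that can act after polyamine oxidation, passed for TSA against untreated (-2.76, limma adjusted p = 0.0145). It also passed with the block for AzaC/TSA against untreated (-2.45, adjusted p = 0.0302). Its signals were 1875.6 and 1533.9 untreated. In the other groups its experiments stood far apart: 1717.8 and 173.1 with AzaC, 502 and 124.1 with TSA, and 921.5 and 104.3 with AzaC/TSA. A dimmer probe set of Aldh1a1 passed in neither comparison (changes 0.01 and 0.12).

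AzaC against untreated, AzaC/TSA against TSA and the interaction gave 0 calls among the 36 genes and 0 among all 6011 (0.0%). At an unadjusted p under 0.05 the numbers were 2, 0 and 0 of the 36, and 175, 185 and 142 of all 7987 probe sets. With the experiment as a block each of these comparisons also gave 0 by limma.

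The genes whose profile over the 8 arrays was most like that of Sat1 were ranked by Pearson correlation of log2 signal among the 1094 tested genes that ranged at least 0.5 times as far. They were Mt1 (r = 0.987), Atox1 (0.984), Mt2 (0.978), Tgoln1 (0.972) and Xpr1 (0.971). Mt1 and Mt2 are metallothioneins, Atox1 is a copper chaperone, Tgoln1 a protein of the trans-Golgi and Xpr1 a phosphate exporter. Mt1 went from 5001.5 and 2024.9 untreated to 21871.5 and 17252.8 with TSA, and Atox1 from 1204.7 and 619.6 to 3651.4 and 3473.9. All 5 shared with Sat1 the higher untreated signal of experiment 1.

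For Odc1 the closest among 5059 genes were Morc4 (0.948), Pias1 (0.922), Limk2 (0.915), Akap8l (0.905) and Dct (0.898). Their signals were low, from 22 to 198.9 over all 8 arrays, and each was lower in experiment 2 than in experiment 1 with AzaC/TSA. With Spearman in place of Pearson correlation 1 of the 5 genes stayed for Sat1 and 3 of the 5 for Odc1. These correlations describe 8 arrays that share treatment and experiment, and carry no test.

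**Figure D5:**
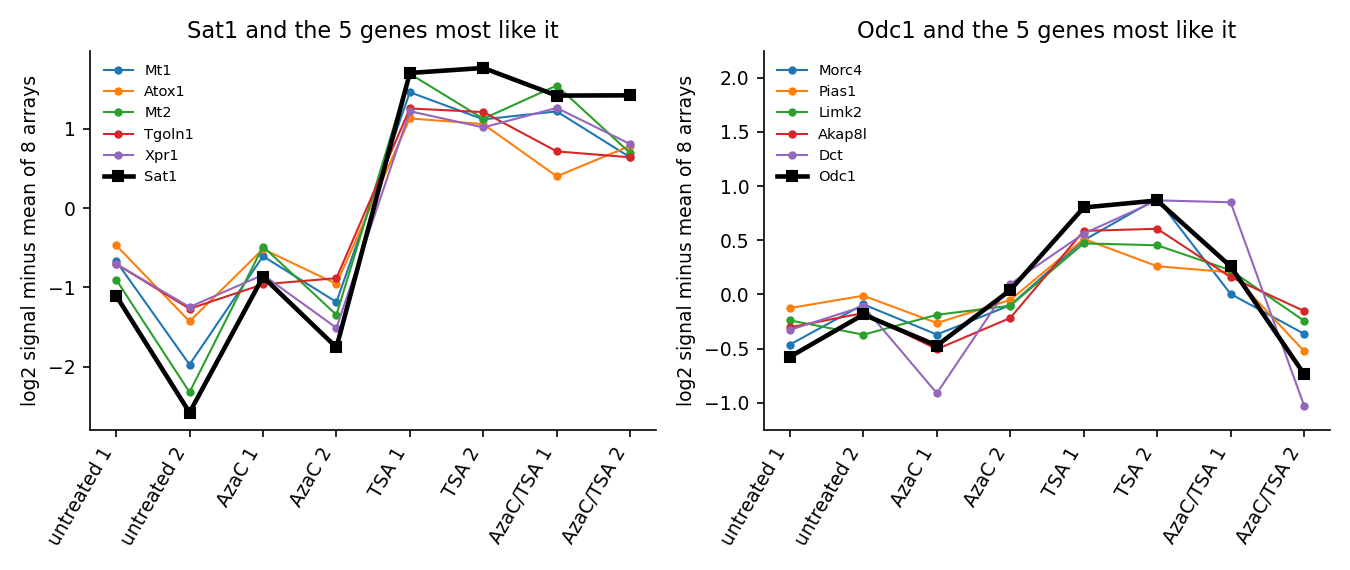
Log2 signal minus its mean over the 8 arrays for Sat1 (left) and Odc1 (right), in black, with the 5 genes of highest Pearson correlation in colour. The Sat1 profiles step up on the 4 arrays with TSA; those of Odc1 peak with TSA alone and are lower with AzaC/TSA in experiment 2 than in experiment 1.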

How the data were processed

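Total RNA of each of 8 neurosphere cultures was put on 1 array. The authors deposited linear signal intensity per probe set, from 0.1 to 26044.5. Every array has a 2%-trimmed mean of 200.1, so the intensities were on a shared scale when deposited. The upstream software is not given in the sources used here. Control probe sets (66) were dropped, signals under 20.0 were raised to that floor, and log2 was taken. Probe sets were tested when 2 or more arrays reached 50.0, which kept 7987. Symbols came from the array annotation, updated through gene identifiers (10839 of 10855 single-symbol probe sets matched). Each gene was represented by its tested probe set of highest mean signal. limma 3.58.1 in R 4.3.3 fitted 1 mean per group over all 8 arrays (lmFit, eBayes with intensity trend; residual and prior degrees of freedom 4 and 4.93, and 3 and 6.71 with the block). p-values were two-sided and adjusted by Benjamini-Hochberg over 7987 probe sets, with a threshold of 0.05. SEs come from this fit. The script was tested on simulated data.

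The members, gene lists and naming rule were chosen with earlier results of these data known. Named are all network genes past the threshold, a fixed set of close pathway genes, the 5 genes most like each member, and others picked after their values were seen: Nfe2l2, Oat, Aldh1a1, Hif1a and Enoph1, which passed only with the block. Sample titles number the experiments, so equal numbers pair the arrays; for each of the 6 possible pairs of groups, deviations of same-numbered arrays from their group means correlated (lowest r 0.203, highest 0.411). Alternatives were the scaling (quantile, median centring), the floor, the filter, the variance model, the arrays fitted, the block, and each array left out. Their effect is given in the closing section.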

Additional observations from a re-analysis of the deposited data

Results flagged for a closer look

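Odc1 moved in opposite directions in the 2 experiments wherever cells with both inhibitors were compared with cells lacking TSA. For AzaC/TSA against AzaC its log2 change was 0.73 in experiment 1 and -0.78 in experiment 2. For AzaC/TSA against untreated it was 0.83 in experiment 1 and -0.55 in experiment 2. Each value rests on 1 array per group and experiment, the AzaC/TSA arrays enter both comparisons, and the difference between the experiments was not tested.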

How the results depend on the processing

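Of the 12 log2 changes of Sat1 and Odc1 (6 comparisons each), 4 stayed within the replicate SD under all 19 alternatives: Sat1 for AzaC/TSA against AzaC and against TSA, and Odc1 for TSA and for AzaC against untreated. The other 8 moved further only when single arrays were left out. Sat1 then ran from 2.84 to 4.31 for TSA against untreated, from -0.21 to 1.27 for AzaC against untreated, from 2.52 to 4.0 for AzaC/TSA against untreated and from -1.58 to -0.11 for the interaction. Odc1 ran from -0.52 to 0.48 for AzaC/TSA against AzaC, from -1.57 to -0.58 against TSA, from -0.35 to 0.64 against untreated and from -1.74 to -0.74 for the interaction. The TSA change of Azin1 went from 0.27 to -0.30 without TSA replicate 2 (0.84 without TSA replicate 1). For the network counts, the numbers that rose and fell were 0 and 0 in all 3 comparisons with TSA when no filter was set. Fitting only the groups compared gave 1 and 1 for TSA against untreated, 0 and 1 for AzaC/TSA against AzaC and 0 and 0 for AzaC/TSA against untreated. Without the intensity trend 0 rose for TSA against untreated, 1 fell for AzaC/TSA against AzaC and 1 rose for AzaC/TSA against untreated. With the experiment as replicate block they were 4 and 6, 3 and 5, and 4 and 7. Leaving out single arrays gave 0 to 1 risen and 0 to 3 fallen, 0 to 1 and 0 to 2, and 0 to 2 and 0 to 2. Fewer arrays enter the last and the second of these settings, and the cause of the other shifts was not tested. Median centring shifted the median change of all genes by 0.11 for AzaC/TSA against AzaC, -0.15 for AzaC against untreated and 0.18 for the interaction. Rescaling to a common trimmed mean and other probe sets of the members gave no value, since the arrays share that mean and each member has 1 probe set. With 2 arrays per group, the median 95% half-width of a log2 change was 0.93 for TSA against untreated.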
